A study of Mus musculus with 2 samples.

Results

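Beta cells low in urocortin 3 (Ucn3) are described here in mouse pancreatic islets, the small endocrine organs in which beta cells make insulin. Single islet cells were captured in droplets and the 3′ ends of their transcripts were counted by unique molecular identifiers (UMIs). The islets came from C57BL/6 mice at postnatal day 70 (10 weeks): 1 library from miR-503 βTG mice, which carry a transgene that overexpresses the microRNA miR-503 in beta cells, and 1 library from wild type mice. For both libraries the sample records give a digestion of 5 minutes at 37 °C. The promoter of the transgene and the number of mice behind each library are not given in the sources used here. Barcodes with at most 10% of UMIs from mitochondrial genes were called beta cells where Ins1 and Ins2 together took at least 25% of UMIs, Gcg below 3%, Sst below 1% and Ppy below 2%, which gave 2707 transgenic and 3295 wild type beta cells. In each library the Ucn3-low cells are the 10% of beta cells with the lowest share of Ucn3 among UMIs outside Ins1 and Ins2, with ties broken by fewer Ucn3 UMIs and then by the order of columns in the matrix. They number 270 transgenic and 329 wild type cells, 599 of 6002 beta cells and of 8698 deposited barcodes, and they are set against the other 2437 transgenic and 2966 wild type beta cells.

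Ucn3 encodes a peptide hormone of the corticotropin-releasing factor family that mouse beta cells store and release with insulin. It acts on the receptor Crhr2 of delta cells, which then release somatostatin, and somatostatin restrains insulin and glucagon release. In mice Ucn3 comes on late in beta cell development, is lost in several models of diabetes and is used as a marker of mature beta cells; adult islets are known to hold a minority of insulin-positive, Ucn3-negative cells. The values below are sums of UMIs over the cells of a class, in counts per 1000000 UMIs outside Ins1 and Ins2 (CPM). Ratios are log2 values of Ucn3-low over other beta cells of the same library. With 1 library a group there is no replicate, cells of 1 library are not replicates, and no test was made. The 95% intervals are exact binomial intervals that cover counting error only, and they do not cover the spread between mice or libraries.

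The upstream sequences of 4 genes are shown because the results turn on them: Ucn3, which chose the cells, Fos and Trpm5, which were lower in these cells, and Cd81, which was higher. Each is the 250 bases before the start that the RefSeq promoter table gives (GRCm38.p6), 5′ to 3′ on the gene's strand; for Cd81 that start lies a few bases inside the gene span given further on. The sequences are printed with any core of the cAMP response element (TGACG) and any TATA box (TATAAA), searched on both strands, in capitals. The windows are chr13:3945350-3945599 (minus strand) for Ucn3, chr12:85473640-85473889 (plus) for Fos, chr7:143094643-143094892 (minus) for Trpm5 and chr7:143052500-143052749 (plus) for Cd81.
Ucn3: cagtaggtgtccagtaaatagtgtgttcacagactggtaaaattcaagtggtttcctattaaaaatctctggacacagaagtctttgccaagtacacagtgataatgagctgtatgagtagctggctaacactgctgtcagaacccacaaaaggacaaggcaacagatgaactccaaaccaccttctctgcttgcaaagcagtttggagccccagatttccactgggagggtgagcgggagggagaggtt
Fos: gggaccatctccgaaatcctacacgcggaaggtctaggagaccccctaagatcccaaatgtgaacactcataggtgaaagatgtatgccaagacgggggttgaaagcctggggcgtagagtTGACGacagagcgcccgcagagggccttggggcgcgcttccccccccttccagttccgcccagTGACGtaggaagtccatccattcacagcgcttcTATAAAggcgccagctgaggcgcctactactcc
Trpm5: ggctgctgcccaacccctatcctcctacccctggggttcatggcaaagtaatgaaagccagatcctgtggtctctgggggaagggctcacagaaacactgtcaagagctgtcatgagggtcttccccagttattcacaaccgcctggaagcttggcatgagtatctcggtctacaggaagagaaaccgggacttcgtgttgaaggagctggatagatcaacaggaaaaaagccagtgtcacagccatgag
Cd81: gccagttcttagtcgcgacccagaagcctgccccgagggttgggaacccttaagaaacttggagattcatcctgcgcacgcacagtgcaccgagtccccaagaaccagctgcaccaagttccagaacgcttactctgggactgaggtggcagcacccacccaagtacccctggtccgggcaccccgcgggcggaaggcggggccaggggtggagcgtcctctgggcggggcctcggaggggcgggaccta
The Fos window held 2 matches to TGACG and 1 to TATAAA, and the other 3 windows held neither word. Of 32851 promoter windows of the same length, 17.8% held TGACG and 12.4% held TATAAA. A match is a string of letters and is not a measured binding site. The mature microRNA that the transgene is named for is shown with its seed, bases 2 to 8, in capitals (RefSeq, GRCm38.p6, chrX:53054027-53054049, minus strand); the labels do not say which arm the transgene expresses.
mmu-miR-503-5p: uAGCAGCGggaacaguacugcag

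The rule fixed the low Ucn3 of these cells, so the following values describe the choice and support nothing. The transgenic Ucn3-low cells held no Ucn3 UMI in 146 cells, 1 UMI in 118 and 2 UMIs in 6, and the wild type Ucn3-low cells held none in 140, 1 in 183 and 2 in 6. The other beta cells held a median of 5 Ucn3 UMIs in the transgenic and 6 in the wild type library, with a highest cell of 32 and 55 UMIs. As sums, Ucn3 stood at 43.4 CPM in Ucn3-low and 483 in other transgenic beta cells, and at 55.1 in Ucn3-low and 544 in other wild type beta cells. At the boundary, the highest transgenic member stood at 101 CPM and the lowest cell outside at 101.2, and in the wild type library the highest member stood at 110.5 and the lowest cell outside at 111.0. On both sides of the boundary these are cells with 1 Ucn3 UMI that differ in depth, and the distribution had no gap there.

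**Figure D1:**
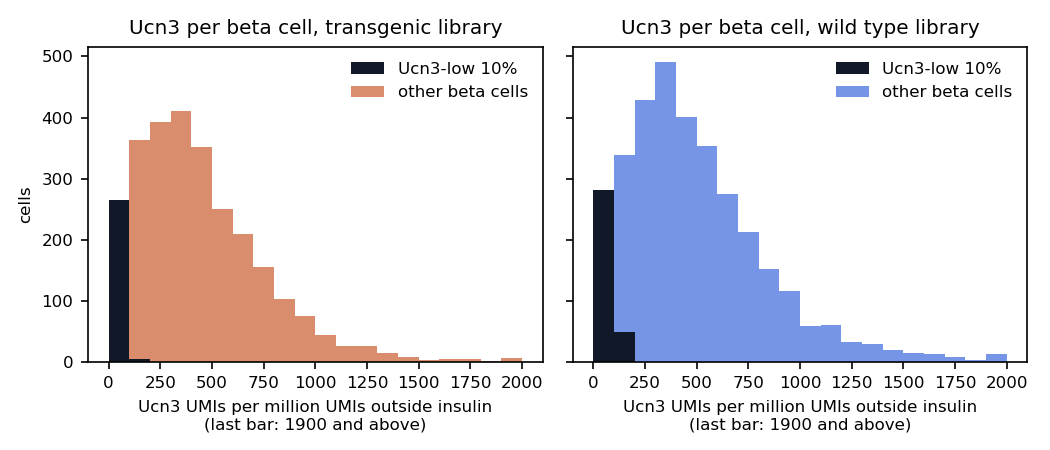
Number of beta cells (y axis) by Ucn3 level (x axis, CPM outside insulin, bins of 100, the last bar holding 1900 and above), transgenic library left and wild type library right. Dark bars are the Ucn3-low cells and coloured bars the other beta cells; the cell counts show no gap at the boundary, which lies at 101 CPM in the transgenic and 110.5 in the wild type library.

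Ucn3 UMIs were also found in droplets of other cells. Alpha cell droplets (Gcg at least 20% and insulin under 10% of UMIs), which should lack it, held 19.8 CPM of Ucn3 in the transgenic (453 droplets) and 23.6 in the wild type library (260 droplets). The median numbers of UMIs outside insulin were 10487.5 and 10478 in Ucn3-low cells and 14188 and 14470 in the alpha droplets of the transgenic and wild type libraries. After every cell was thinned to 8000 UMIs outside insulin, 8.35% of transgenic beta cells held no Ucn3 UMI (exact interval 7.29 to 9.50%, 191 shallower cells left out), against 6.60% of wild type beta cells (5.74 to 7.55%, 266 left out). Without thinning the shares were 5.39% and 4.25% of transgenic and wild type beta cells. The thinned share in alpha droplets was 86.7% in the transgenic and 83.8% in the wild type library. At or below the wild type boundary lay 11.9% of transgenic beta cells (10.7 to 13.2%). The wild type share there, 9.98%, was fixed by the rule and is not a measurement. These shares are of 1 library each.

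To measure Ucn3 in counts that the choice had not used, the UMIs of each cell were split at random into 2 sets of about equal size. The lowest 10% were chosen on 1 set, and Ucn3 was read from the set-aside UMIs. There Ucn3 stood at 283 CPM in the chosen and 459 in the other transgenic beta cells, 1.62-fold lower in the chosen (log2 -0.70, -0.85 to -0.55). In the wild type library it stood at 272 in the chosen and 519 in the other beta cells, 1.91-fold lower (log2 -0.93, -1.07 to -0.79). The chosen cells held 0 Ucn3 UMIs in the choosing set, so ties were broken by column order, and 45.9% of the transgenic and 52.6% of the wild type chosen cells were also members by the whole count. The cells chosen for low Ucn3 were low in unused counts as well, by far less than in the counts that chose them.

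Ucn3-low cells carried the beta cell markers, with less of each. Insulin, which the gate required, took 56.9% of UMIs in Ucn3-low and 60.4% in other transgenic beta cells, and 48.2% in Ucn3-low and 51.1% in other wild type beta cells. Slc2a2, the glucose transporter GLUT2 of mouse beta cells, which no rule used, stood at 96.8 CPM in Ucn3-low and 137 in other transgenic beta cells (log2 -0.50, -0.68 to -0.33) and at 151 in Ucn3-low and 176 in other wild type beta cells (-0.22, -0.35 to -0.09); in set-aside UMIs the ratios were -0.25 and -0.28. Barcodes outside the beta gate held Slc2a2 at 0.12 times the level of beta cells. Ins1 was lower in Ucn3-low cells by more than Ins2: log2 -0.30 and -0.17 in the transgenic and -0.23 and -0.15 in the wild type library. Ucn3-low cells were also shallower, with a median of 25103 UMIs against 30028 in other transgenic beta cells and 20682 against 23782 in other wild type beta cells. Depth is tied to the rule. Every beta cell with no Ucn3 UMI is a member, and a shallow cell more often holds none. At 1 Ucn3 UMI the deeper cells are the members. The median mitochondrial share was 2.08% in Ucn3-low and 2.02% in other transgenic beta cells, and 3.22% in Ucn3-low and 3.21% in other wild type beta cells. Of the Ucn3-low cells 1.85% of the transgenic and 0 of 329 wild type (which allows up to 1.11%) lay among the 10% of beta cells with the most UMIs, and 18.9% and 14.0% among the 10% with the fewest.

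Markers of other cell types were summed in the same way. The 10 endothelial markers came to 27.4 CPM in Ucn3-low and 32.6 in other transgenic beta cells, and to 135 in Ucn3-low and 55.0 in other wild type beta cells, where 1 member held 194 of the 477 UMIs. The acinar markers came to 347 in Ucn3-low and 265 in other transgenic beta cells, and to 351 in Ucn3-low and 56.2 in other wild type beta cells, where 1 member held 1063 of the 1242 UMIs. Of 16 acinar markers in the table, 14 were higher and 0 lower in Ucn3-low cells of both libraries, and Amy2a1 was at 0. Macrophage markers came to 361 in Ucn3-low and 310 in other transgenic beta cells. In the wild type library they came to 316 in Ucn3-low and 246 in other beta cells. Of 11, 7 were higher and 0 lower in both libraries, not counting Adgre1, which was at 0 in transgenic Ucn3-low cells. In wild type Ucn3-low cells 1 member held 265 of the 1118 macrophage UMIs. Of 2923 genes with at least 50 CPM in a class of each library, 38.6% were higher and 33.1% lower in both. The markers were counted without that minimum. B and T cell markers came to 207 in Ucn3-low and 152 in other transgenic beta cells, and to 182 in Ucn3-low and 124 in other wild type beta cells, and nearly all of these UMIs were Cd79a. Without Cd79a they came to 16 in Ucn3-low and 18.7 in other transgenic beta cells, and to 1.41 in Ucn3-low and 3.19 in other wild type beta cells.

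In the wild type library the higher acinar and macrophage sums rested on single cells. Without the member cell with the most UMIs of each list, wild type acinar markers came to 50.9 CPM in Ucn3-low and 56.2 in other beta cells, and macrophage markers to 242 in Ucn3-low and 246 in other beta cells. In the transgenic library acinar markers then came to 284 in Ucn3-low and 265 in other beta cells, and macrophage markers to 325 in Ucn3-low and 310 in other beta cells. Endothelial markers in the wild type library still came to 80.2 in Ucn3-low and 55.0 in other beta cells. B and T cell markers still came to 199 in Ucn3-low and 152 in other transgenic beta cells. In the wild type library they came to 175 in Ucn3-low and 124 in other beta cells. With marker-rich cells left out of both classes (5 or more UMIs of defining markers of other types, or 20 or more of acinar markers), the log2 ratio of Fos was -1.30 in the transgenic and -1.15 in the wild type library, and that of Cd81 1.29 and 0.88. These settings were added after the values were seen.

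Among endocrine types, delta markers came to 1144 CPM in Ucn3-low and 972 in other transgenic beta cells. In the wild type library they came to 523 in Ucn3-low and 505 in other beta cells. Of 7 delta markers, 2 were higher and 0 lower in both libraries, counting only markers with UMIs in every class. Cckbr, Crhr2, Ghsr and Lepr were at 0 in transgenic Ucn3-low cells, and only Ghsr in wild type Ucn3-low cells. Ghsr had UMIs in other beta cells of both libraries, so it was lower in both, outside that count. Gamma markers came to 7623 in Ucn3-low and 6970 in other transgenic beta cells, and to 5862 in Ucn3-low and 5216 in other wild type beta cells. Alpha markers, lower in Ucn3-low cells, came to 10499.5 in Ucn3-low and 10687 in other transgenic beta cells, and to 5894 in Ucn3-low and 6527 in other wild type beta cells. Doublet scores put 2.96% of Ucn3-low and 3.36% of other transgenic beta cells in the top 4% of their library, and 3.34% of Ucn3-low and 3.67% of other wild type beta cells. The libraries shared 25 barcodes, which were 0 of the transgenic and 3 of the wild type members.

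Few genes differed past 1.5-fold along with Ucn3. Of 2923 genes with at least 50 CPM in a class of each library, leaving out Ucn3, Ins1 and Ins2, 5 (0.171%) were at least 1.5-fold higher and 8 (0.274%) at least 1.5-fold lower in Ucn3-low cells of both libraries. In the transgenic library alone 0.81% of 3086 genes were past 1.5-fold higher and 0.583% lower, and in the wild type library alone 0.253% of 3158 were higher and 0.443% lower. Without a fold limit, 38.6% of the 2923 genes were higher and 33.1% lower in both libraries. In set-aside UMIs 2 were higher and 8 lower past 1.5-fold, but only 1 of the 5 higher genes (Cd81) and 4 of the 8 lower genes (Fos, Jun, Ddit4 and Txnip) were among them. These genes were read from the contrast that chose the cells, so their values are a description.

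**Figure D2:**
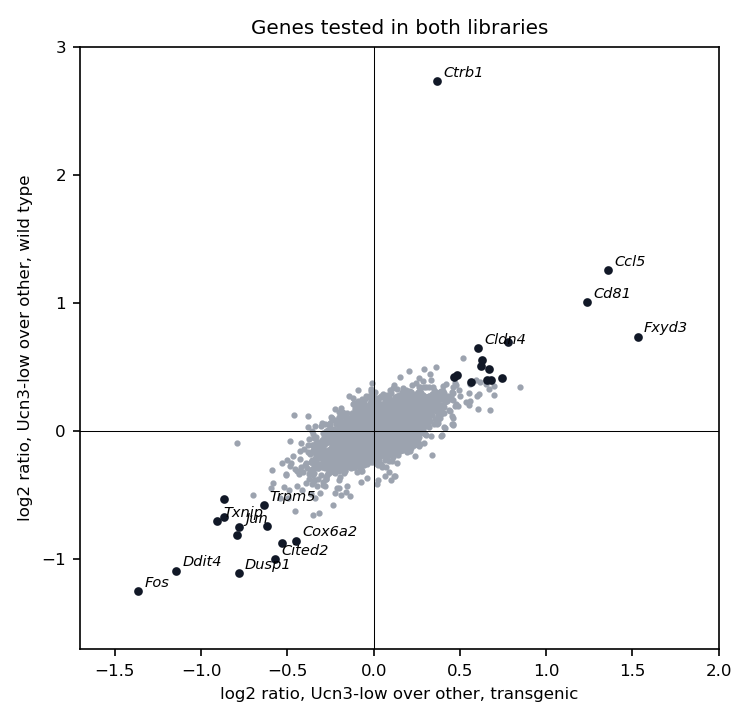
Each point is a gene with at least 50 CPM in a class of each library: log2 ratio of Ucn3-low over other beta cells in the transgenic (x axis) and the wild type library (y axis). Named genes are black; most points lie near 0, Fos lies lowest at -1.37 and -1.25, and Ctrb1 stands alone at 2.73 in the wild type library, where 1 cell held most of its UMIs.

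Immediate early genes, which stimulation and cell dissociation switch on within minutes, were 5 of the 8 lower genes. Fos, a subunit of the AP-1 transcription factor, stood at 284 CPM in Ucn3-low and 732 in other transgenic beta cells (log2 -1.37, -1.47 to -1.27). In the wild type library Fos stood at 372 in Ucn3-low and 882 in other beta cells (-1.25, -1.33 to -1.17). Fos was thus less than 0.5 times as high in Ucn3-low cells of both libraries. Its AP-1 partner Jun stood at 893 in Ucn3-low and 1532 in other transgenic beta cells (-0.78), and at 719 in Ucn3-low and 1206 in other wild type beta cells (-0.75). Egr1, a zinc finger factor, stood at 392 in Ucn3-low and 714 in other transgenic beta cells (-0.87), and at 457 in Ucn3-low and 728 in other wild type beta cells (-0.67). Dusp1, a phosphatase that turns off MAP kinases, stood at 130 in Ucn3-low and 225 in other transgenic beta cells (-0.78), and at 110 in Ucn3-low and 237 in other wild type beta cells (-1.11). Ier2, another immediate early gene, completes the 5, with ratios of -0.79 in the transgenic and -0.81 in the wild type library.

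The other 3 lower genes were Ddit4, Txnip and Phlda1. Ddit4, an inhibitor of mTORC1, stood at 36.7 CPM in Ucn3-low and 81.3 in other transgenic beta cells (log2 -1.15), and at 33.1 in Ucn3-low and 70.2 in other wild type beta cells (-1.09). Txnip, a glucose-induced inhibitor of thioredoxin, stood at 163 in Ucn3-low and 305 in other transgenic beta cells (-0.91), and at 171 in Ucn3-low and 277 in other wild type beta cells (-0.70). Phlda1 had ratios of -0.62 in the transgenic and -0.74 in the wild type library.

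Depth moved with these genes. With the lowest 10% taken within each of 10 bins of depth, the ratio of Fos was -0.81 in the transgenic and -0.87 in the wild type library, and 3 genes in place of 8 were past 1.5-fold lower in both, Fos, Ddit4 and Dusp1. The other 5 were then nearer 0: Jun at -0.42 in the transgenic and -0.46 in the wild type library, Egr1 at -0.42 and -0.38, Txnip at -0.50 and -0.53, Ier2 at -0.73 and -0.49, and Phlda1 at -0.24 and -0.54. Among Ucn3-low cells split at the median depth, Fos stood at 344 CPM in the deeper and 191 in the shallower transgenic cells, and at 482 in the deeper and 203 in the shallower wild type cells. All 4 values lay below the level in other beta cells. In set-aside UMIs the ratio of Fos was -1.30 in the transgenic and -1.24 in the wild type library.

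Trpm5, a calcium-activated cation channel that takes part in glucose-stimulated insulin release, stood at 194 CPM in Ucn3-low and 302 in other transgenic beta cells (log2 -0.64, -0.76 to -0.52). In the wild type library it stood at 231 in Ucn3-low and 343 in other beta cells (-0.57, -0.68 to -0.47). Unlike for Fos, the depth bins left its ratio at -0.60 in the transgenic and -0.57 in the wild type library, and in set-aside UMIs it was -0.46 and -0.56. C2cd4b, whose human relative lies near a diabetes risk locus, stood at 526 in Ucn3-low and 761 in other transgenic beta cells (-0.53), and at 417 in Ucn3-low and 764 in other wild type beta cells (-0.87). Cited2, a transcriptional co-regulator, had ratios of -0.57 in the transgenic and -1.0 in the wild type library (-0.18 and -0.66 within depth bins), and Rasd1, a dexamethasone-induced Ras protein, of -0.87 and -0.53. These 4 genes were past 1.5-fold lower in 1 library only.

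**Figure D3:**
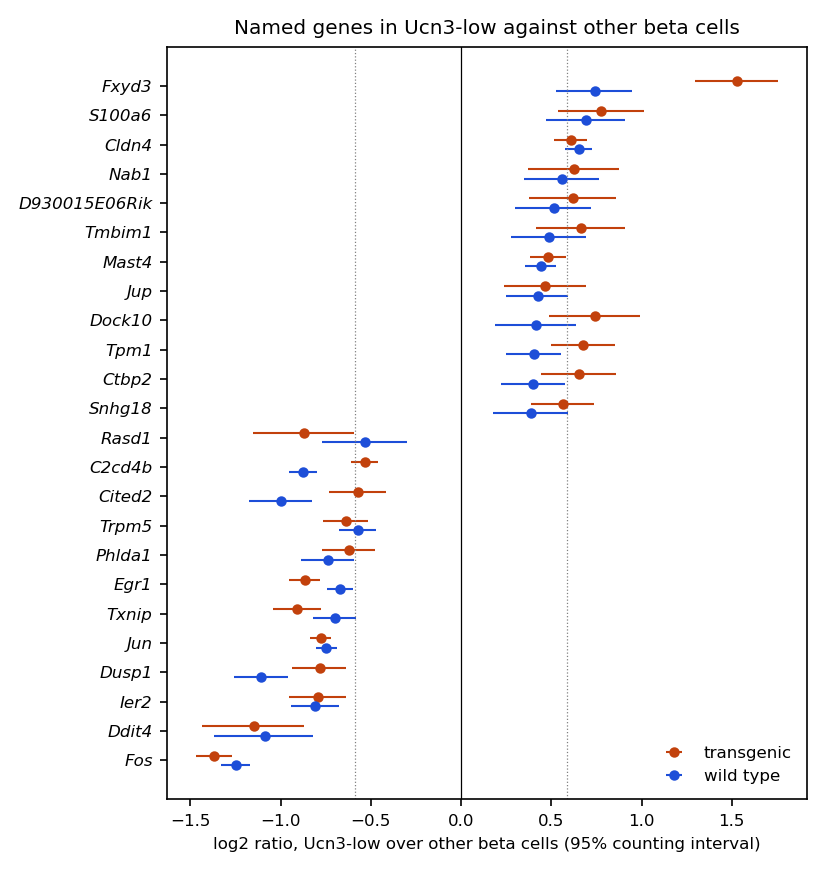
Log2 ratio of Ucn3-low over other beta cells (x axis) for the 12 highest and 12 lowest named genes, transgenic in orange and wild type in blue, with 95% counting intervals; dotted lines are 1.5-fold. Genes were named only where both libraries lay on the same side of 0, so that agreement was fixed by the choice.

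Among the genes that were higher, Cd81, a tetraspanin used to mark immature and dedifferentiating mouse beta cells, stood at 94.1 CPM in Ucn3-low and 39.9 in other transgenic beta cells (log2 1.24, 1.05 to 1.43). In the wild type library it stood at 72.9 in Ucn3-low and 36.2 in other beta cells (1.01, 0.81 to 1.20). Cd81 is also a gene of other islet cells, and its level outside the beta gate was 5.05 times that in beta cells. No Ucn3-low cell held more than 13 of its UMIs. Its ratio was 1.11 in the transgenic and 1.10 in the wild type library within depth bins, and 0.63 and 0.87 in set-aside UMIs. Cd81 (chr7:143052739-143067934, plus strand) and Trpm5 (chr7:143069153-143094642, minus strand) are neighbours on GRCm38.p6 that lie tail to tail with 1218 bases between them, and they differed in opposite directions.

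Fxyd3, a regulator of the sodium pump, stood at 67.7 CPM in Ucn3-low and 23.5 in other transgenic beta cells (log2 1.53, 1.30 to 1.76), and at 60.2 in Ucn3-low and 36.0 in other wild type beta cells (0.74, 0.52 to 0.95). In set-aside UMIs its ratio was 0.63 in the transgenic and 0.46 in the wild type library. In those UMIs Fxyd3 was thus under 1.5-fold in the wild type library. Cldn4, a claudin of tight junctions, stood at 381 in Ucn3-low and 250 in other transgenic beta cells (0.61), and at 475 in Ucn3-low and 303 in other wild type beta cells (0.65), with 0.46 and 0.38 in set-aside UMIs. S100a6, a calcium-binding protein, had ratios of 0.78 in the transgenic and 0.69 in the wild type library; without the cell with the most of its UMIs these were 0.61 and 0.43, and in set-aside UMIs 0.74 and 0.42. The other 9 of the 12 named higher genes did not reach 1.5-fold in both libraries; they include Mast4 (0.48 in the transgenic and 0.44 in the wild type library), the tropomyosin gene Tpm1 (0.68 and 0.40) and Jup, which encodes plakoglobin (0.47 and 0.42).

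Ccl5, a chemokine of immune cells, was past 1.5-fold higher in both libraries through single cells: 1 cell held 122 of the 207 UMIs in transgenic and 1 cell 158 of the 235 UMIs in wild type Ucn3-low cells. Without that cell its log2 ratio was 0.08 in the transgenic and -0.35 in the wild type library. Ctrb1, a digestive enzyme of acinar cells, stood at 69.8 CPM in Ucn3-low and 54.1 in other transgenic beta cells (0.37). In the wild type library it stood at 72.9 in Ucn3-low and 11 in other beta cells (2.73), and 1 cell held 206 of the 258 UMIs, without which the ratio was 0.43. Gpx3, a secreted glutathione peroxidase, stood at 531 in Ucn3-low and 352 in other transgenic beta cells (0.59), and at 235 in Ucn3-low and 178 in other wild type beta cells (0.40). The level of Gpx3 outside the beta gate was 7.25 times that in beta cells. Cd79a, a B cell marker whose level outside the beta gate was 0.41 times that in beta cells, had ratios of 0.52 in the transgenic and 0.58 in the wild type library.

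To see whether the lowest 10% stood apart, beta cells were ordered by Ucn3 share into 10 bins of equal size, bin 1 being the Ucn3-low cells. Fos stood at 284 CPM in bin 1, 615 in bin 4 and 1108 in bin 10 of the transgenic library, and at 372, 800 and 1310 in those bins of the wild type library. Trpm5 stood at 194, 285 and 357 in transgenic and 231, 330 and 361 in wild type bins 1, 4 and 10. Both genes were thus graded along Ucn3 across the beta cells, though not in every step. These bins were not matched for depth, with which Fos also moved, as given above. Cldn4 stood at 381, 231 and 215 in transgenic and 475, 335 and 229 in wild type bins 1, 4 and 10. Cd81 stood at 94.1, 47.8 and 33.8 in transgenic and 72.9, 35.1 and 26.0 in wild type bins 1, 4 and 10, and most of its difference lay among bins 1 to 4.

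**Figure D4:**
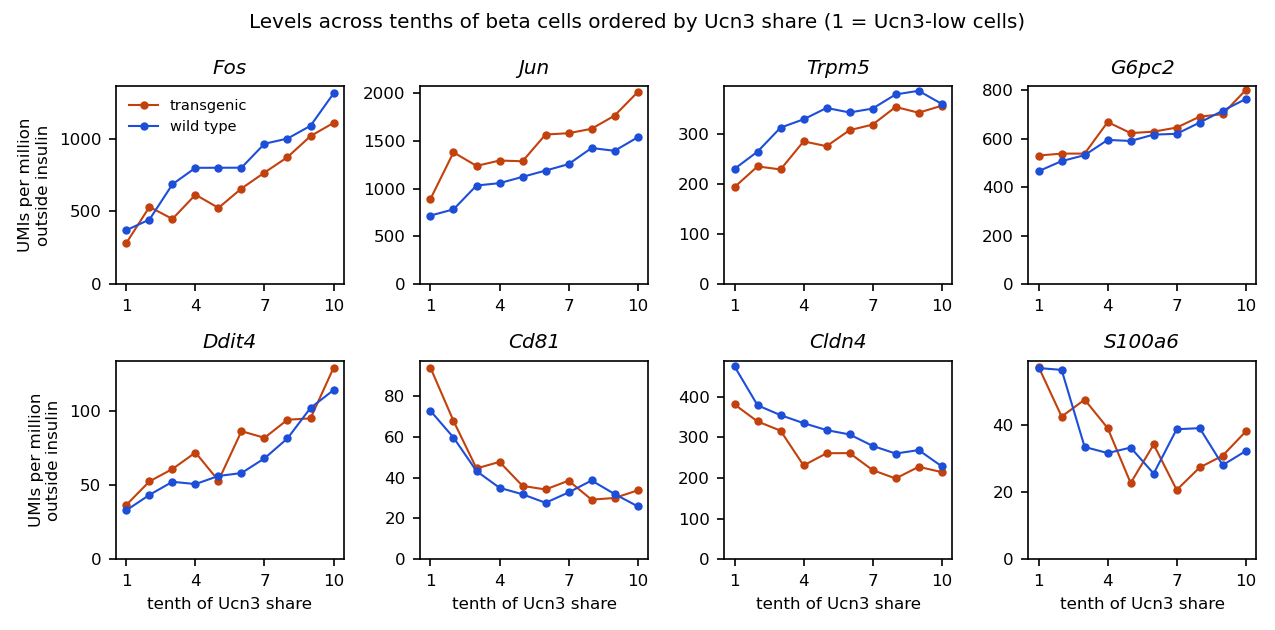
Level of 8 genes (y axes, CPM outside insulin, from 0) in 10 equal bins of beta cells ordered by Ucn3 share (x axes, bin 1 is the Ucn3-low cells), transgenic in orange and wild type in blue. Fos stood at 284 in bin 1 and 1108 in bin 10 of the transgenic library, and Cd81 at 94.1 and 33.8.

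Genes that come on as mouse beta cells mature after birth were lower in Ucn3-low cells. Of the 14 on the list, which leaves out Ucn3, 9 were above the minimum. All 9 were lower in both libraries, against 33.1% of all 2923 genes, and 0 were past 1.5-fold in both. Their median was -0.25 in the transgenic and -0.22 in the wild type library, against 0.017 and 0.0039 over 2922 genes, and it was negative under all settings run (-0.40 to -0.10 and -0.35 to -0.14). Trpm5 and Slc2a2, given above, are 2 of the 9. G6pc2, the islet glucose-6-phosphatase, stood at 530 CPM in Ucn3-low and 650 in other transgenic beta cells (-0.29), and at 466 in Ucn3-low and 624 in other wild type beta cells (-0.42). Cox6a2, a subunit of cytochrome oxidase, had ratios of -0.45 in the transgenic and -0.85 in the wild type library, and Ero1lb, an oxidase that helps to fold proinsulin, of -0.25 and -0.22. Pcp4l1 lay below the minimum and was higher, at 14.0 in Ucn3-low and 4.94 in other transgenic beta cells and at 12.4 in Ucn3-low and 5.46 in other wild type beta cells, on 42 and 44 Ucn3-low UMIs. Mafa, a transcription factor of mature beta cells, had 0 UMIs in transgenic and 1 in wild type Ucn3-low cells and gives no comparison.

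Of 26 genes linked to immature or dedifferentiated beta cells, 5 were above the minimum. Of these, 4 were higher and 1 lower in both libraries, against 38.6% and 33.1% of all 2923 genes. The 4 were Cd81, the gamma cell hormones Pyy (0.26 in the transgenic and 0.42 in the wild type library) and Ppy (0.09 and 0.09), and Rbp4 (0.33 and 0.40), a retinol carrier that delta cells also make; Ppy was part of the gate. Sox4, a developmental transcription factor, was lower (-0.34 and -0.52). The median was 0.26 in the transgenic and 0.40 in the wild type library, 0.25 and 0.65 within depth bins, and 0.13 and 0.06 in set-aside UMIs. Below the minimum, Npy was lower, at 1.98 CPM in Ucn3-low and 20.4 in other wild type beta cells (log2 -3.37, -4.69 to -2.32). In the transgenic library its ratio was -1.35, on 3 Ucn3-low UMIs. Vim (0.78 in the transgenic and 1.14 in the wild type library) and Hhex (0.74 and 1.31), also below the minimum, were higher. The marker sums of gamma and delta cells given above were higher too, but Ppy and Pyy are among the gamma markers and Rbp4 among the delta markers. That likeness was thus partly built in.

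Nuclear-encoded subunits of oxidative phosphorylation, the mitochondrial machinery that makes ATP, were lower in 63 of 67 genes and higher in 2 in both libraries. Of all 2923 genes, 33.1% were lower and 38.6% higher in both. None of the 67 was past 1.5-fold in both libraries. The median was -0.16 in the transgenic and -0.13 in the wild type library. With scaling by all UMIs it was -0.04 in both, where the median of all genes was 0.14 in the transgenic and 0.09 in the wild type library. Ndufs7, a subunit of complex I, had ratios of -0.35 in the transgenic and -0.30 in the wild type library. Ndufv1, of the same complex, had ratios of -0.38 and -0.37, but 0.06 and -0.31 in set-aside UMIs. The 12 mitochondrially encoded genes had medians of -0.02 in the transgenic and -0.04 in the wild type library.

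Of 21 immediate early and heat shock genes, 15 were lower and 4 higher in both libraries, against 33.1% and 38.6% of all 2923 genes. The median was -0.24 in each library, and -0.14 in the transgenic and -0.10 in the wild type library within depth bins. The 4 higher were Jund (0.33 in the transgenic and 0.23 in the wild type library) and the chaperone genes Hspa8, Hspb1 and Hsph1. Of 11 genes of glucose sensing and excitability, 9 were lower and 2 higher in both libraries. Ffar1, a fatty acid receptor that amplifies insulin release, had ratios of -0.41 in the transgenic and -0.32 in the wild type library, and of -0.16 and -0.21 in set-aside UMIs. The median of these 11 genes was -0.17 in the transgenic and -0.07 in the wild type library. It was -0.04 and 0.01 with scaling by all UMIs, where that of all genes was 0.14 and 0.09. In set-aside UMIs it was -0.0094 and -0.17. Of 11 beta cell transcription factors, 6 were lower, 1 higher and 4 opposite between libraries, with Isl1, an islet homeobox factor, at -0.31 in the transgenic and -0.48 in the wild type library.

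The unfolded protein response adjusts protein folding in the endoplasmic reticulum. Of its 26 genes above the minimum, 15 were higher and 4 lower in both libraries, 0 past 1.5-fold. Those counts stand against 38.6% higher and 33.1% lower of all 2923 genes. The median was 0.12 in the transgenic and 0.06 in the wild type library, and 0.016 and 0.092 in set-aside UMIs. Hspa5, the chaperone BiP, stood at 3704 CPM in Ucn3-low and 3300 in other transgenic beta cells (log2 0.17), and at 3611 in Ucn3-low and 3157 in other wild type beta cells (0.19). Creld2, a secreted stress protein, had ratios of 0.35 in the transgenic and 0.32 in the wild type library, and Asns, asparagine synthetase, of -0.43 and -0.32. Of 8 genes on the senescence list 5 were higher and 2 lower, too few to set apart from those shares. Cdkn1a, the cell cycle inhibitor p21, stood at 213 in Ucn3-low and 140 in other transgenic beta cells (0.60). In the wild type library it stood at 201 in Ucn3-low and 178 in other beta cells (0.18). Of the granule genes 4 of 18 were higher and 11 lower, with Scg2, a secretogranin, at -0.24 in the transgenic and -0.22 in the wild type library. Of the miR-503 family targets 5 of 21 were above the minimum, with medians of 0.04 in the transgenic and -0.01 in the wild type library.

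**Figure D5:**
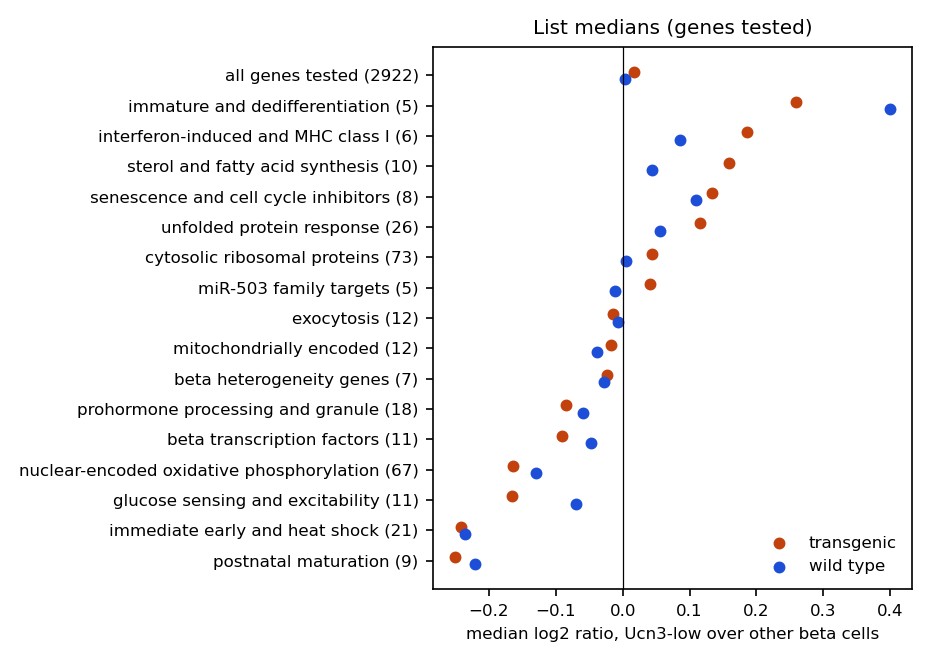
Median log2 ratio of Ucn3-low over other beta cells (x axis) for each list with at least 5 genes above the minimum (number in brackets) and for all genes, transgenic in orange and wild type in blue. The maturation list (-0.25 and -0.22) and the immediate early list (-0.24 and -0.24) lie lowest here, and the immature list of 5 genes highest (0.26 and 0.40); this order does not hold within depth bins or in set-aside UMIs.

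Ucn3-low cells of the transgenic library were then set against those of the wild type library. Of 3236 genes, 63 (1.95%) were higher by 1.5-fold or more in transgenic Ucn3-low cells and 69 (2.13%) lower by as much. With scaling by all UMIs, of which insulin took 56.9% in transgenic and 48.2% in wild type Ucn3-low cells, 21 were higher and 368 lower, so the split depends on the denominator. Pdyn, the precursor of dynorphin, stood at 57.4 CPM in transgenic and 16.1 in wild type Ucn3-low cells (log2 1.83, and 2.14 in other beta cells). Th, the tyrosine hydroxylase of catecholamine synthesis, stood at 87.4 in transgenic and 32.5 in wild type Ucn3-low cells (1.43, and 1.55 in other beta cells). Mt2, a metallothionein, stood at 2747 in transgenic and 5652 in wild type Ucn3-low cells (-1.04, and -1.0 in other beta cells). The interferon-induced gene Ifit1 had ratios of -1.29 in Ucn3-low and -1.19 in other beta cells. For these 4 genes the ratios in Ucn3-low and in other beta cells were of like size. Lockd, a noncoding RNA next to the cell cycle inhibitor gene Cdkn1b, had a ratio of 2.42 in Ucn3-low and 0.79 in other beta cells, and 1 transgenic cell held 35 of its 159 UMIs. Its Ucn3-low ratio between libraries was 0.82 within depth bins and 0.30 in set-aside UMIs.

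The Ucn3-low ratio itself was compared between the libraries for genes above the minimum in both, leaving out markers of other cells. The highest transgenic minus wild type difference was that of Fxyd3, 0.79 (0.48 to 1.10), and the lowest that of Ddx18, an RNA helicase, -0.70 (-1.03 to -0.38). Ddx18 had ratios of -0.79 in the transgenic and -0.09 in the wild type library. In set-aside UMIs the difference was 0.17 for Fxyd3 and -0.016 for Ddx18, so neither kept its size there. That setting also takes other cells: 45.9% of the transgenic and 52.6% of the wild type chosen cells were members by the whole count. The cause of the smaller size was not tested. Cycling cells were few: at least 10 UMIs over 26 cell cycle genes were held by 7 of 270 Ucn3-low (2.59%, 1.05 to 5.27%) and 26 of 2437 other transgenic beta cells (1.07%, 0.698 to 1.56%). In the wild type library they were held by 1 of 329 Ucn3-low (0.304%) and 7 of 2966 other beta cells (0.236%). The 7 cells held 335 of the 455 cell cycle UMIs of transgenic Ucn3-low cells; the limit of 10 UMIs was chosen after the values were seen.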

How the data were processed

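The deposited values are UMI counts, whole numbers per gene and cell with no normalization, in 1 filtered matrix a library. The submitters' processing notes name STAR 2.5.1b, Cell Ranger 2.1.0 and build mm10. The 4158 transgenic barcodes held 109243270 UMIs and the 4540 wild type barcodes 104677537, with 5727 to 94943 UMIs a barcode. UMIs were summed per class and scaled to CPM outside insulin with pandas 2.3.3 and numpy 2.4.6 (Python 3.11.15). Exact intervals used scipy 1.17.1, TMM factors edgeR 4.0.16, doublet scores scanpy 1.11.5 and plots matplotlib 3.10.9. The ratio code was tested on simulated data. No test across samples was possible with 1 library a group.

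Named genes were the 12 highest and 12 lowest by the ratio nearer 0 of both libraries, and the 6 highest and 6 lowest among markers of other cells or genes over 5 times more abundant outside the gate, between libraries, and between the libraries' ratios. The ratio nearer 0 was used only where both libraries had the same sign. Up to 4 genes of each list, and Ucn3, Ins1, Ins2, Slc2a2 and Mafa, were added. The list members Ppy, Pyy, Rbp4, Sox4, Jund, Hspa8, Hspb1, Hsph1 and Cdkn1a, where outside that rule, were chosen after their values were seen. Some list members are not reported here by name and stay in all counts and medians. The members and lists were chosen with earlier results of these data known. Alternatives changed the scaling, minimum, fold, member share, depth matching, gate, doublets and the UMIs used.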

Additional observations from a re-analysis of the deposited data

How the results depend on the processing

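No paired analysis was possible because each group is 1 library and the labels carry no replicate numbers. The 5 genes higher and 8 lower in Ucn3-low cells of both libraries, and the 63 higher and 69 lower in transgenic than wild type Ucn3-low cells, moved as follows. With scaling by all UMIs 8 were higher, and 21 higher and 368 lower between libraries; that scaling moved the median ratio of all genes to 0.14 in the transgenic and 0.09 in the wild type library and to -0.29 between libraries. By the mean over cells 3 were higher and 4 lower. With a minimum of 20 CPM 9 were higher, and 190 and 233 between libraries; with 10 UMIs and no minimum 294 and 179, and 1080 and 1061. At the lower fold limit tried there were 33 and 39, and 273 and 359, and at a fold of 2 there were 2 and 2, and 16 and 11. For the lowest 5% 17 were lower, and 125 were lower between libraries, for the lowest 20% 1 was higher and 3 lower, and within depth bins 3 were lower. From set-aside UMIs 2 were higher, and 95 and 121 between libraries. The stricter gate left 1 higher, at most 5% mitochondrial UMIs 8 higher and, added after the data were seen, leaving out cells with 5 defining or 20 acinar marker UMIs 3 higher. Ccl5 in the wild type library turned to -0.55 in set-aside UMIs, -0.15 with the stricter gate, -0.057 without marker-rich cells and -0.35 without its top cell (the last 2 settings added later), and Ctrb1 to -1.18 in set-aside UMIs. The cause was not tested. A planned filter of 5 UMIs over 6 marker lists left 13 transgenic and 15 wild type beta cells and gave no value. Depth limits the choice: at 1 Ucn3 UMI a cell falls in or out by its total.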
